A study of Mus musculus with 8 samples.

Results

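Small nucleolar RNAs and small Cajal body RNAs were examined in hippocampi of wild-type and Mbd2-/- mice. They were taken as all rows of the expression table whose symbol starts with Snora, Snord or Scarna followed by a digit. This gave 98 of the 19201 rows, of which 31 were Snora, 58 Snord and 9 Scarna rows. The control libraries came from C57BL/6 mice, the wild-type group, and the Mbd2-/- libraries from mice without functional Mbd2, a protein that binds methylated DNA. The loss of Mbd2 was constitutive, so every cell type of these animals lacked it. According to the study, heterozygous parents were bred to obtain all littermates, so that maternal behaviour would not confound the comparison. Each genotype had 4 libraries, each made from the pooled hippocampi of 2 mice of 10 to 12 weeks of age, so the replicates are pools of animals, and male and female hippocampi were grouped. Total RNA was depleted of ribosomal RNA and read as paired ends of 100 bases. The values are normalized counts, that is reads on a gene divided by a size factor of the library.

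Small nucleolar RNAs guide the chemical modification of other RNAs. Box C/D RNAs (Snord) direct the methyltransferase fibrillarin to riboses of ribosomal RNA, and box H/ACA RNAs (Snora) direct the pseudouridine synthase dyskerin to uridines. Small Cajal body RNAs (Scarna) carry C/D domains, H/ACA domains or both and guide the same modifications on spliceosomal RNAs. In mammals most of these RNAs are cut out of introns of host genes, many of which encode ribosomal proteins or are noncoding Snhg genes. They have no poly(A) tail and are shorter than messenger RNAs, so how much of them a library holds depends on how RNA was selected and on fragment size.

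The annotation of the same genome build (GENCODE vM1 on mm9) held 87 of the 98 rows. Of these, 82 lay within a gene on the same strand, here called the host, and 5 had no such gene. Annotated lengths ran from 64 to 414 bases, with a median of 132.5 for Snora, 78.5 for Snord and 140 for Scarna. The sequences of the 5 RNAs that differed between the genotypes are shown first, because the results turn on them. Capitals mark the letters ACA within the last 8 bases (H/ACA RNAs) or the letters TGATGA within the first 25 and CTGA within the last 15 bases (C/D boxes).
Snora81 (mm9 chr16:23110829-23111006, plus strand): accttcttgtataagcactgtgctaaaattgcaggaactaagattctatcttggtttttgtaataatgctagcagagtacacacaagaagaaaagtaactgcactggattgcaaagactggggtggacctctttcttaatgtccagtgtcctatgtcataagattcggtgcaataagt
Snora23 (mm9 chr7:117189878-117190061, plus strand): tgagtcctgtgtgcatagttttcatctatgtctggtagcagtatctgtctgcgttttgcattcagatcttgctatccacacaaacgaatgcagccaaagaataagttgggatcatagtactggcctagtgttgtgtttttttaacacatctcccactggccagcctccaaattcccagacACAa
Snora64 (mm9 chr17:24857717-24857850, plus strand): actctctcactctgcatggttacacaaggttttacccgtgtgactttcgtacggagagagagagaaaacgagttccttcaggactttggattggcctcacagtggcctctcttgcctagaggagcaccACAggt
Scarna6 (mm9 chr1:89681131-89681395, plus strand): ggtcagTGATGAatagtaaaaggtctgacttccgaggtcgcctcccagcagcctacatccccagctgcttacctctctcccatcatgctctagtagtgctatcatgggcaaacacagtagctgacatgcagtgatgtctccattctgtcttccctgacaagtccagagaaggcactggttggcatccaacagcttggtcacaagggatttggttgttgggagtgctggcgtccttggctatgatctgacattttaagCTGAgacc
Scarna13 (mm9 chr12:106269285-106269559, minus strand): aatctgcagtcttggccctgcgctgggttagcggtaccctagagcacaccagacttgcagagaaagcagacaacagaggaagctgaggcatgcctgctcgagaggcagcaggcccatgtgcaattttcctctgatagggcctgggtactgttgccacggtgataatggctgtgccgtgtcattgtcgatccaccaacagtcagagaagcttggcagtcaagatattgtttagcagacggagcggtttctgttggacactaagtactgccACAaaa
Snora81 has no ACA within its last 8 annotated bases. These letters were found in 28 of the 30 annotated Snora rows (93.3%) and in 47.7% of all 1552 annotated small nucleolar RNA genes, and the 2 C/D motifs together in 27 of 48 Snord rows (56.2%) and in 17.6% of all of those genes. Only the annotated strand was searched. A match of letters is a description and not a tested site.

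The targeted gene was checked first. Mbd2 had normalized counts of 295, 363, 371 and 354 in wild-type replicates 1 to 4 and of 244, 240, 339 and 217 in Mbd2-/- replicates 1 to 4. The mean was 346 ± 34.4 (SD, n = 4) in wild-type and 260 ± 54.3 (SD, n = 4) in Mbd2-/- hippocampi. Mbd2-/- replicate 3 lay within the wild-type range. In Mbd2-/- hippocampi its level fell by 0.43 ± 0.12 (standard error) on the log2 scale (adjusted p = 0.0174, limma), and an exact two-sided permutation test of its 8 counts gave p = 0.0571. According to the study's supplement, this mouse line keeps an intact first exon and the Mbd2 reads of Mbd2-/- mice come from it, and a count per gene does not separate exons.

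These RNAs were a minor part of each library. In wild-type replicates 1 to 4 they took 0.0691%, 0.123%, 0.114% and 0.0772% of 8439570, 16650636, 13908220 and 23790825 reads on genes. In Mbd2-/- replicates 1 to 4 they took 0.144%, 0.103%, 0.149% and 0.0935% of 9855935, 14020765, 8087750 and 13234829 reads. The 95% Clopper-Pearson intervals reached from 0.0673% to 0.0709% in the lowest library and from 0.146% to 0.152% in the highest and cover counting error only. The mean share was 0.0959% ± 0.0267 (SD, n = 4) in wild-type and 0.122% ± 0.0284 (SD, n = 4) in Mbd2-/- hippocampi, and the genotypes overlapped. Without Snord17, the most abundant row, the means were 0.0786% and 0.103%.

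Expression was concentrated in few RNAs. The 3 most abundant, Snord17, Scarna10 and Snord15b, held 46.6% of the summed mean count, and the 10 most abundant held 85.0%. A mean of at least 10 normalized counts over the 8 libraries, the limit for testing, was reached by 35 of the 98 rows, namely 21 of 31 Snora, 8 of 58 Snord and 6 of 9 Scarna. The 63 untested rows had means of up to 8.75, and 26 rows lay under 1. Just inside the limit was Snord8 with a mean of 10.2, and just outside was Snora65 with 8.75. Length and level went together, with a Spearman's rho of 0.61 over the 87 rows with a length, which share the same libraries. Of rows under 100 bases, 5 of 42 could be tested. Of those between 126 and 149 bases it was 20 of 33, and of those from 178 bases upwards 8 of 8. Per 100 bases of annotated length, Snord15b had the highest level of the 10 most abundant rows with 1417 normalized counts, ahead of Snord17 with 972 and Snord22 with 931.

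**Figure D1:**
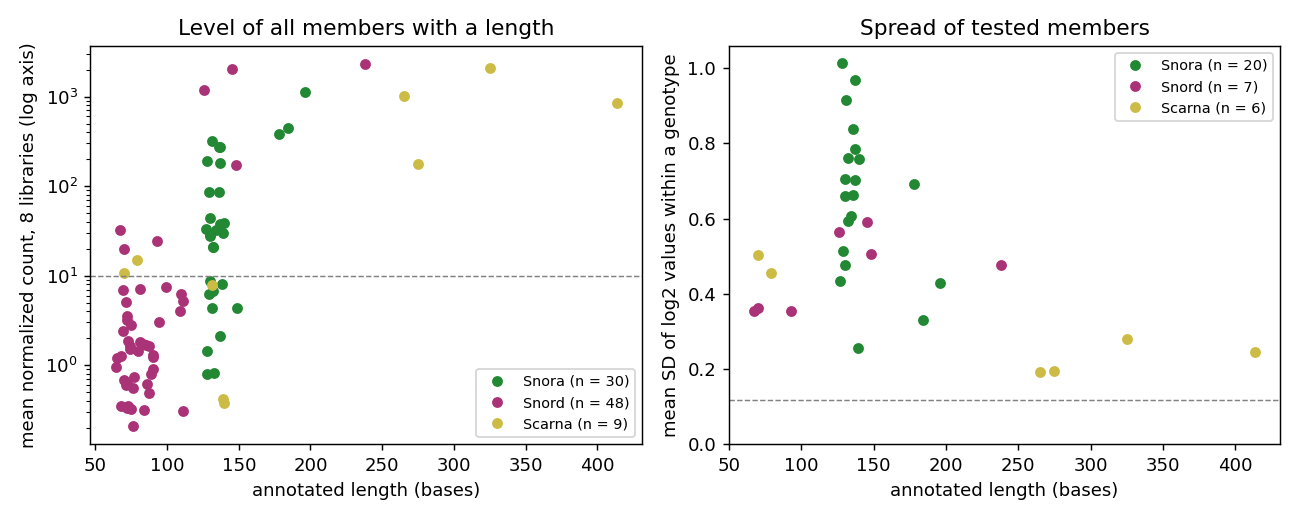
Left, mean normalized count over the 8 libraries (log axis) against annotated length in bases for the 87 rows with a length, with the dashed line at the limit of 10 for testing; 8 of 8 rows of at least 178 bases lie above it. Right, mean of the 2 within-genotype SDs of log2 values against length for the 33 tested rows with a length, with the dashed line at the median of all 14504 tested rows (0.117).

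Of the 35 tested RNAs, 5 were higher in Mbd2-/- hippocampi and 0 were lower at an adjusted p under 0.05 (limma with Benjamini-Hochberg adjustment over all 14504 tested rows). The higher ones were the H/ACA RNAs Snora81, Snora64 and Snora23 and the Cajal body RNAs Scarna6 and Scarna13. They make up 14.3% of the tested RNAs, where 12.0% of all tested rows were called higher and 10.0% were called lower, so the share of calls was near that of the whole table. With a trend on transcript length removed, as described below, 1 of the 5 was still called higher. Another 2 RNAs were then called lower (all 13243 rows: 1081 higher and 917 lower). At an unadjusted p under 0.05 there were 7 of the 35, the other two being Snora44 and Snora43, where 35.5% of all tested rows in either direction had such a p. DESeq2 and limma-voom on the recovered reads also called 0 lower, and edgeR called 1, Snora43. The libraries of the genotypes did not overlap for 3 of the 35 (Snora81, Snora64 and Snora23), against 23.6% of all tested rows. The log2 fold change of Mbd2-/- over wild-type was above 0 in 25 and below 0 in 10 of the 35, with a median of 0.38 (all tested rows, median 0.00 and 49.95% above 0). Division by a size factor keeps the values of all rows near this balance. Since these RNAs rise and fall together across libraries, as described below, these 35 signs are not independent. In bulk hippocampus, a change in the number of cells of a type and a change in RNA per cell cannot be told apart.

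Snora81, an H/ACA RNA, showed the largest difference. Its normalized counts were 71.9, 159, 344 and 128 in wild-type replicates 1 to 4 and 767, 599, 633 and 364 in Mbd2-/- replicates 1 to 4. Every Mbd2-/- library lay above every wild-type library, but wild-type replicate 3 and Mbd2-/- replicate 4 nearly touched. The mean was 176 ± 118 (SD, n = 4) in wild-type and 591 ± 168 (SD, n = 4) in Mbd2-/- hippocampi. The log2 fold change was 1.92 ± 0.51 (standard error, with an adjusted p of 0.0410 in limma). This call depended on single libraries: it held without wild-type replicate 3 (adjusted p = 0.00969, limma) and without Mbd2-/- replicate 4 (0.0318), and it was lost when any of the other 6 was left out (0.0663 to 0.103). It was also lost without the filter on low values (adjusted p = 0.0533, limma) and with a trend on transcript length removed (0.0946). The annotated gene lies within Eif4a2 and overlaps an exon of 1 of its transcripts or more. The annotation has 3 more genes of this name, of which one on chromosome 15 (71624618 to 71624795, plus strand) is 98.9% identical to it, and how reads matching both places were counted is not given in the sources used here, so its level is uncertain.

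Snora23, an H/ACA RNA from an intron of Ipo7, was higher with no overlap between the genotypes. In wild-type replicates 1 to 4 its normalized counts were 189, 287, 372 and 279, and in Mbd2-/- replicates 1 to 4 they were 714, 521, 687 and 507. The lowest Mbd2-/- library was well above the highest wild-type library. Means were 282 ± 74.8 (SD, n = 4) and 607 ± 108 (SD, n = 4), a log2 fold change of 1.13 ± 0.19 (standard error, limma, adjusted p = 0.00366). The call held with each library left out in turn, with adjusted p from 0.000349 to 0.0293 (limma). No other annotated small nucleolar RNA gene was over 53.2% identical to it.

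Snora64 was measured at a lower level, from 7 to 56 reads per library. Its normalized counts were 10.5, 21.8, 28.3 and 10.6 in the wild-type and 71.5, 32.9, 49.4 and 32.7 in the Mbd2-/- replicates. The genotypes did not overlap, with a gap between 28.3 and 32.7. The mean rose from 17.8 ± 8.76 (SD, n = 4) to 46.6 ± 18.3 (SD, n = 4), a log2 fold change of 1.39 ± 0.32 (standard error, limma, adjusted p = 0.00660). The call was lost with a trend on transcript length removed (adjusted p = 0.0526, limma). The RNA lies in Rps2, the gene of a small-subunit ribosomal protein, and overlaps an annotated exon of it. Whether reads were counted by strand is not given in the sources used here.

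The 2 Cajal body RNAs called higher changed less but varied less. Scarna6 had normalized counts of 784, 942, 804 and 976 in the wild-type and of 1365, 1174, 1215 and 936 in the Mbd2-/- replicates. Mbd2-/- replicate 4 lay within the wild-type range, and the other 3 lay above it. Its log2 fold change was 0.41 ± 0.10 (standard error, with an adjusted p of 0.00988 in limma), from a mean of 876 ± 96.5 (SD, n = 4) to 1172 ± 178 (SD, n = 4). Scarna13, a guide for spliceosomal RNAs built of H/ACA domains, had counts of 145, 153, 178 and 136 in the wild-type and of 209, 205, 222 and 156 in the Mbd2-/- replicates. Again only Mbd2-/- replicate 4 lay within the wild-type range. The mean of Scarna13 went from 153 ± 17.7 (SD, n = 4) to 198 ± 29.0 (SD, n = 4), a log2 fold change of 0.36 ± 0.11 (standard error, limma, adjusted p = 0.0324). Like Snora81, Scarna13 remained called without wild-type replicate 3 (adjusted p = 0.0278, limma) or Mbd2-/- replicate 4 (0.000511) and lost the call when any of the other 6 was left out (0.0667 to 0.108). Scarna6 kept it in all 8 cases. With a trend on transcript length removed both calls were lost and both signs turned (-0.07, adjusted p = 0.546, and -0.11, adjusted p = 0.481, limma), and relative to the other tested RNAs both lay near 0 (-0.02 and -0.07).

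**Figure D2:**
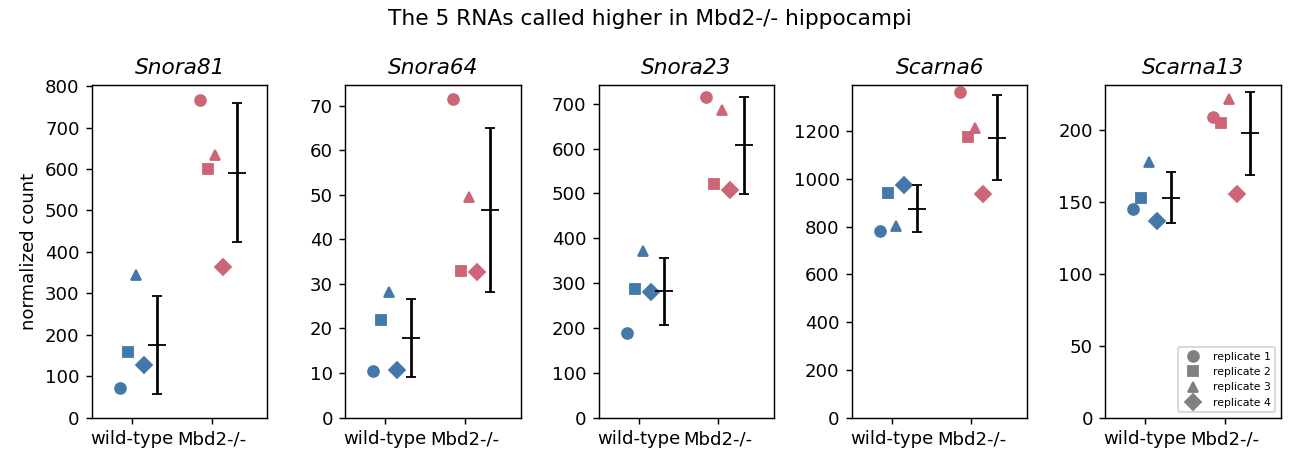
Normalized count (vertical axis, from 0) of the 5 RNAs called higher, in each wild-type (blue) and Mbd2-/- (red) library, with symbols for the replicate number and black bars for the mean and SD over 4 libraries. Snora81, Snora64 and Snora23 do not overlap between the genotypes, while for Scarna6 and Scarna13 the Mbd2-/- replicate 4 (936 and 156) lies within the wild-type range.

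The other 4 tested Cajal body RNAs were not called. Scarna10, which joins a C/D and an H/ACA domain and guides modification of the U5 spliceosomal RNA, was the most abundant of them with means of 1869 ± 469 and 2294 ± 333 (SD, n = 4 each). Its log2 fold change was 0.32 ± 0.18 (standard error, with an adjusted p of 0.256 in limma). Scarna2 had counts of 857, 725, 786 and 899 in the wild-type and of 872, 863, 1210 and 666 in the Mbd2-/- replicates, so that both the highest and the lowest library were Mbd2-/-, and its log2 fold change was 0.12 (adjusted p = 0.604, limma). The short Scarna17 and Scarna9, of 79 and 70 annotated bases, had means of 16.7 and 12.1 in wild-type and of 13.4 and 9.17 in Mbd2-/- hippocampi. Their log2 fold changes were -0.37 and -0.30 (adjusted p = 0.405 and 0.567, limma).

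Among the 8 tested box C/D RNAs 0 were called by limma, by DESeq2, by edgeR or by limma-voom, and 0 had an unadjusted p under 0.05 in limma (35.5% of all tested rows). Their log2 fold changes ran from -0.23 to 0.94. Those with the largest difference and the highest level per length are shown here, and Snord22 has no TGATGA within its first 25 annotated bases.
Snord15b (mm9 chr7:106628073-106628217, minus strand): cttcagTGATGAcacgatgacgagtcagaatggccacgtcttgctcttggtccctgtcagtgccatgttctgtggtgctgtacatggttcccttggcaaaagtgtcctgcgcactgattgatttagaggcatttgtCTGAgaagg
Snord22 (mm9 chr19:8800356-8800481, plus strand): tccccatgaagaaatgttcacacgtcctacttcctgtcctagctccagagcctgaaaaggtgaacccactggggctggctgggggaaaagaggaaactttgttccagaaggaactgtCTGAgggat
Snord22, one of several RNAs from the noncoding gene Snhg1, had counts of 457, 1199, 1214 and 510 in the wild-type and of 1693, 1300, 1913 and 1096 in the Mbd2-/- replicates. Mbd2-/- replicate 4 lay below 2 wild-type libraries, and the wild-type libraries fell into a low and a high pair. Its log2 fold change of 0.94 (standard error 0.41) had an adjusted p of 0.161 (limma). Without robust moderation of the variances it passed (adjusted p = 0.0204, limma).

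Snord17, the most abundant member, gave 1550, 2625, 2987 and 1546 normalized counts in the wild-type and 3052, 2068, 3059 and 1613 in the Mbd2-/- replicates. High and low libraries occurred in both genotypes, and the log2 fold change was 0.18 ± 0.33 (standard error, with an adjusted p of 0.740 in limma). Snord15b, a guide for ribose methylation of the large ribosomal RNA, gave 1262, 3019, 2006 and 886 in the wild-type and 2844, 1685, 2896 and 1835 in the Mbd2-/- replicates. Its highest and its lowest library were both wild-type, and its log2 fold change was 0.48 ± 0.43 (standard error, with an adjusted p of 0.479 in limma).

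Snord8 lay closest to the limit for testing and was the most variable, with counts of 1.5, 16.6, 5.47 and 4.25 in the wild-type and of 25.5, 1.83, 23.9 and 2.88 in the Mbd2-/- replicates. It was carried by 1 to 22 reads per library and its log2 fold change was 0.57 ± 0.76 (standard error, with an adjusted p of 0.631 in limma). Snord64, from the imprinted region linked to Prader-Willi syndrome, was the 1 row of that region's small nucleolar RNAs analysed here. It had 33.0, 36.9, 22.8 and 34.5 counts in the wild-type and 39.6, 26.5, 23.9 and 43.2 in the Mbd2-/- replicates. Mbd2-/- replicates 1 and 4 lay above the wild-type range and the other two within it, with a log2 fold change of 0.04 ± 0.22 (standard error, limma, adjusted p = 0.907).

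The remaining H/ACA RNAs of high level or large difference were not called. Snora74a, the most abundant H/ACA RNA, had means of 1128 ± 302 and 1105 ± 364 (SD, n = 4 each) and a log2 fold change of -0.05 (adjusted p = 0.933, limma). Snora68 ranged from 166 to 561 in wild-type and from 153 to 708 in Mbd2-/- hippocampi, a spread far wider than its log2 fold change of 0.08 (standard error 0.64). Snora78 had counts of 46.5, 244, 226 and 88.7 in the wild-type and of 255, 112, 437 and 134 in the Mbd2-/- replicates, a log2 fold change of 0.71 ± 0.71 (standard error, limma, adjusted p = 0.525). It overlaps Rps2 on the opposite strand, and its host Snhg9 had a mean under 10 and was not tested. Snora44 had 51.0, 95.5, 72.9 and 44.6 counts in the wild-type and 85.6, 65.8, 159 and 110 in the Mbd2-/- replicates. Its log2 fold change of 0.65 (standard error 0.27) had an adjusted p of 0.102 (limma). Snora52 and Snora5c had log2 fold changes of 0.63 and 0.53 with standard errors of 0.60 and 0.47. Snora70, Snora16a and Snora3, which were among the most variable, had 0.51, 0.39 and 0.45 with standard errors of 0.56, 0.57 and 0.40.

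The lowest log2 fold change was that of Snora43, an H/ACA RNA of the noncoding gene Snhg7. Its counts were 34.5, 47.4, 34.6 and 28.7 in the wild-type and 25.5, 21.9, 28.7 and 20.2 in the Mbd2-/- replicates. Mbd2-/- replicate 3 met wild-type replicate 4 at 28.7, and the other libraries were apart. The log2 fold change was -0.56 (standard error 0.20) with an adjusted p of 0.0512 (limma), just above the threshold, and over the other settings with all libraries the adjusted p ran from 0.00094 to 0.0783.

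The spread between libraries of a genotype was wide. The median SD of log2 values over the 35 tested RNAs was 0.63 in wild-type and 0.51 in Mbd2-/- hippocampi, where all tested rows had medians of 0.09 and 0.14 and the 30 tested other small noncoding RNAs had 0.37 and 0.37. Snora had a median SD of 0.70 in wild-type, Snord 0.55 and Scarna 0.23. The spread was also seen at high read numbers, as in Snord15b, which had at least 842 reads in each library and differed 3.41-fold between its lowest and its highest library.

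The libraries that were high or low were the same for most of these RNAs. Within wild-type, replicate 2 was the highest library for 24 of the 35 tested RNAs and replicate 1 the lowest for 20. Within Mbd2-/-, replicate 3 was the highest for 24 and replicate 4 the lowest for 18. Measured as the log2 distance from the mean of the genotype, the median tested RNA lay at -0.45, 0.59, 0.20 and -0.39 in wild-type replicates 1 to 4 and at 0.23, -0.26, 0.54 and -0.36 in Mbd2-/- replicates 1 to 4. The median of all tested rows stayed within 0.01 of 0 in every library. Division by a size factor of the library keeps that median near 0, so it is no independent reference. Over the tested Scarna the same medians reached from -0.22 to 0.16 in wild-type and from -0.32 to 0.16 in Mbd2-/- replicates, and wild-type replicate 2 was the lowest of these rather than the highest. The 30 tested other small noncoding RNAs (microRNA genes, without their long host transcripts, and the minor spliceosomal, vault, telomerase, RNase P and RNase MRP RNAs) had medians between -0.13 and 0.22.

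**Figure D3:**
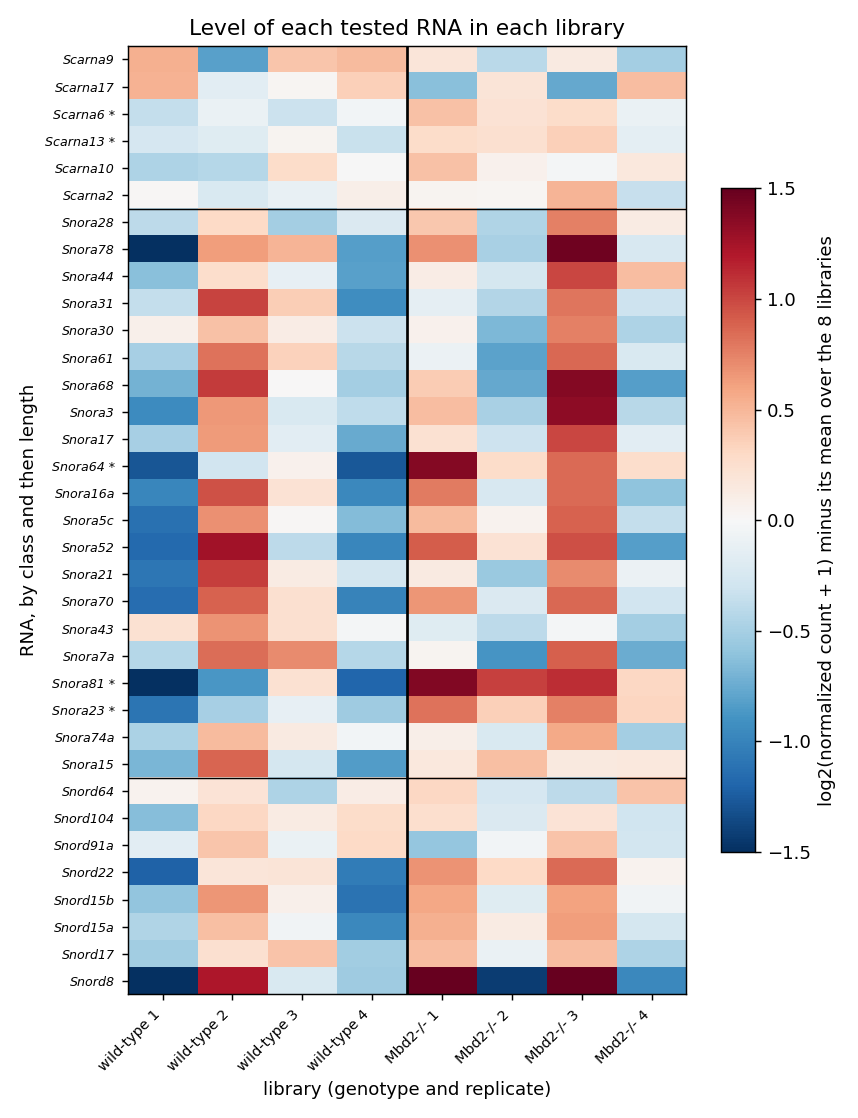
Log2(normalized count + 1) minus its mean over the 8 libraries (colour) for each of the 35 tested RNAs (rows, by class and then by length, those without a length last) in each library (columns); an asterisk marks the 5 called RNAs. Wild-type replicate 2 and Mbd2-/- replicate 3 are high for most Snora and Snord rows, wild-type replicates 1 and 4 are low, and the Scarna rows at the top vary less.

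A log2 fold change over these RNAs therefore depended on the libraries included. With each library left out in turn, the median over the 35 ran from 0.17 (without Mbd2-/- replicate 3) to 0.47 (without Mbd2-/- replicate 4), the number above 0 from 22 to 30, and the number called higher from 3 (without wild-type replicate 1 or 4, or without Mbd2-/- replicate 1 or 3) to 7 (without wild-type replicate 2). Over all 14504 tested rows the number called higher also moved, from 1170 (without Mbd2-/- replicate 2) to 2596 (without Mbd2-/- replicate 4). It was 1181 to 1557 in the fits with 3 of these RNAs called and 1380 without wild-type replicate 2. Snora23, Snora64 and Scarna6 were called in all 8 cases.

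To separate a difference of 1 RNA from the shared rise and fall, each of the 5 was set against the median of the other 34 tested RNAs of the same library. This measure was added after the data had been seen, and since the 5 were picked for being higher, a higher value is no separate evidence. Relative to that median, Snora81 was higher in Mbd2-/- by 1.49 on the log2 scale, and the genotypes did not overlap (exact two-sided permutation p = 0.0286, the smallest that 4 against 4 libraries can give, adjusted over the 5 to 0.0952). Snora64 and Snora23 were higher by 0.79 and 0.70 (exact permutation p = 0.0571 each, adjusted 0.0952). Scarna6 and Scarna13 differed by -0.02 and -0.07 (exact permutation p = 0.943 and 0.914). None of the 5 passed after adjustment.

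Host genes were compared next, because a small nucleolar RNA cut from an intron is made together with its host transcript. Of the tested RNAs, 26 had a tested host, and these were 22 genes, 7 of them ribosomal protein genes. By annotation 14 of the 26 RNAs lay in an intron of the host, and 12 overlapped an exon of it, among them Snora81 and Snora64. How reads shared by an RNA and a host exon were counted is not given in the sources used here. Of the 22 hosts, 11 were called higher and 1 lower, where 12.0% of all tested rows were called higher and 10.0% lower, with log2 fold changes from -0.17 to 0.48 and a median over the 22 of 0.21. The RNA varied more between libraries than its host in 25 of the 26, with a median SD of log2 values of 0.59 against 0.11 over the hosts, the exception being Snora43 with Snhg7.

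Of the 4 hosts of called RNAs, Rps2 and Eif4a2 were called higher with no overlap between the genotypes, and Ipo7 and Atg16l1 were not called. Ipo7, an import receptor that carries ribosomal proteins into the nucleus and host of Snora23, had counts of 1794, 1827, 1789 and 1840 in the wild-type and of 1596, 1645, 1568 and 1810 in the Mbd2-/- replicates, a log2 fold change of -0.13 (adjusted p = 0.0886, limma). Eif4a2, a helicase of translation initiation and host of Snora81, was higher by 0.16 (adjusted p = 0.0308, limma), and Rps2, host of Snora64, by 0.41 (0.00163). Atg16l1, an autophagy gene that holds Scarna6, had a log2 fold change of 0.06 (adjusted p = 0.562, limma). Scarna13 had no host.

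As a ratio to its host within each library, Snora23 was higher in Mbd2-/- by 1.26 on the log2 scale with no overlap (exact two-sided permutation p = 0.0286). The ratios of Snora81, Snora64 and Scarna6 were higher by 1.76, 0.98 and 0.36 (exact permutation p = 0.0571 for each), and after adjustment over these 4 tests each had 0.0571. These RNAs were chosen for being higher in Mbd2-/- and their hosts varied little, so the ratios largely restate the calls and are no separate evidence. Ratios of the other RNAs were not tested, but some had smaller log2 fold changes than hosts that were called higher. Snora7a had a log2 fold change of -0.35 (adjusted p = 0.580, limma), where its host Rpl32, a large-subunit ribosomal protein gene, rose by 0.42 (0.00141). Snora21 was at 0.10 with Rpl23 up by 0.44.

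**Figure D4:**
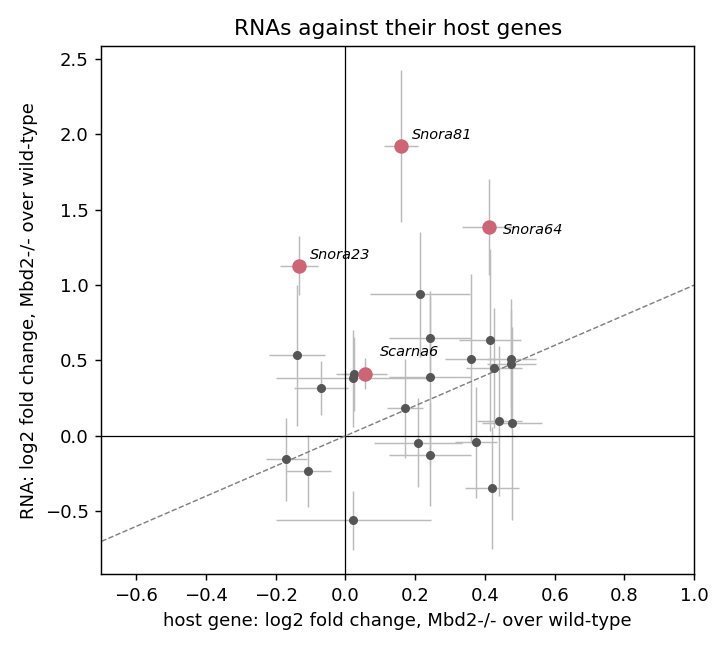
Log2 fold change (Mbd2-/- over wild-type) of each of the 26 RNAs with a tested host (vertical axis) against that of the host gene (horizontal axis), with standard errors; red points are the called RNAs and the dashed line marks equal change. Hosts lie between -0.17 and 0.48, while the RNAs spread from -0.56 to 1.92.

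There were 5 pairs of tested RNAs with a common host, and their ratios within each library were compared after the data had been seen. The H/ACA RNAs Snora17 and Snora43 both lie in Snhg7, and their annotated sequences are 67.8% identical.
Snora17 (mm9 chr2:26494710-26494841, minus strand): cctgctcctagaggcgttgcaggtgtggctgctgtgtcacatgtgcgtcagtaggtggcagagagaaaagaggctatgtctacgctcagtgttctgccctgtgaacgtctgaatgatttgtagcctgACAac
Snora43 (mm9 chr2:26493367-26493505, minus strand): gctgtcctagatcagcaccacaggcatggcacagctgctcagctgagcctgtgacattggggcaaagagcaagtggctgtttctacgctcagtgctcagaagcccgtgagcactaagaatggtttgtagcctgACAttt
Relative to Snora43, Snora17 was higher in Mbd2-/- by 0.94 on the log2 scale, from a mean log2 ratio of -1.04 ± 0.33 to -0.09 ± 0.39 (SD, n = 4 each), with no overlap (exact two-sided permutation p = 0.0286, adjusted over the 5 pairs to 0.0714). Relative to Snora61, Snora44 of the same host Snhg12 was higher by 0.77 with no overlap (exact permutation p = 0.0286, adjusted 0.0714). Snora44 against Snora16a and Snora16a against Snora61 differed by 0.26 and 0.51 (exact permutation p = 0.60 and 0.171). Snord15a and Snord15b, both in Rps3 and 66.0% identical, kept nearly the same ratio in the 2 genotypes, with a difference of 0.03 (exact permutation p = 0.886). No pair passed after adjustment.

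The proteins that bind and mature these RNAs changed in few cases, in a table where 12.0% of rows were called higher and 10.0% lower. Of the box C/D core proteins 0 of 5 were called by limma, 0 of them with an unadjusted p under 0.05 (35.5% of all tested rows), and the methyltransferase gene Fbl had the largest log2 fold change with 0.22 (adjusted p = 0.154). Of the 4 box H/ACA core proteins 1 was called, Nhp2, with counts of 244, 229, 261 and 271 in the wild-type and of 337, 326, 371 and 272 in the Mbd2-/- replicates, a log2 fold change of 0.37 (adjusted p = 0.0101, limma). Its lowest Mbd2-/- library, replicate 4, was next to the highest wild-type library. The pseudouridine synthase gene Dkc1 had 0.01 (adjusted p = 0.953, limma).

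Of 11 assembly factors, 1 rose and 1 fell. Znhit3, a factor in the assembly of C/D particles, had a log2 fold change of 0.39 (adjusted p = 0.00900, limma), and Nolc1, a nucleolar and Cajal body phosphoprotein that binds these particles, one of -0.28 (0.0118). Of 8 Cajal body and cap factors 1 fell, Ice1, a subunit of the complex that transcribes small nuclear RNAs, by 0.31 on the log2 scale (adjusted p = 0.00282, limma). Coil, the coilin gene that marks Cajal bodies, had 0.18 (adjusted p = 0.125, limma). Of 11 factors of release, trimming and decay 1 fell, Upf1, the helicase of nonsense-mediated decay, by 0.20 on the log2 scale (adjusted p = 0.0164, limma). Dbr1, which opens intron lariats, had 0.12 (adjusted p = 0.394, limma). Of 16 tested noncoding host genes 2 rose, Snhg8 (0.51, adjusted p = 0.000715, limma) and Gas5 (0.27, adjusted p = 0.0137), and 1 fell, Snhg11 (-0.39, adjusted p = 0.0337).

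Among 461 rows of other small noncoding RNAs, 30 could be tested, of which 4 were called higher and 1 lower (12.0% and 10.0% of all tested rows), with a median log2 fold change of -0.06. The vault RNA gene Vaultrc5 had counts of 27.0, 53.4, 56.5 and 37.2 in the wild-type and of 109, 104, 79.7 and 90.3 in the Mbd2-/- replicates, a log2 fold change of 1.17 (adjusted p = 0.000908, limma) with no overlap. Rnu12, an RNA of the minor spliceosome, had 73.4, 163, 151 and 96.7 in the wild-type and 369, 189, 779 and 285 in the Mbd2-/- replicates. It did not overlap between the genotypes either, but its log2 fold change of 1.61 (standard error 0.49) had an adjusted p of 0.0645 (limma). Rpph1 and Rmrp, the RNAs of RNase P and RNase MRP, had 0.41 and 0.45 (adjusted p = 0.133 and 0.0693, limma). Terc, the telomerase RNA, which carries an H/ACA domain, had means of 14.6 ± 5.64 and 15.4 ± 3.35 (SD, n = 4 each) and a log2 fold change of 0.12 (standard error 0.29).

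Other features of the libraries moved with the genotype. All 10 choroid plexus markers were called higher, and their summed normalized count was 14567 to 15835 in wild-type and 31367 to 38746 in Mbd2-/- libraries. Of 8 thalamus markers 6 were called lower and none was at 0, with sums of 3907 to 4016 and 2713 to 3118. The 6 hippocampal neuron markers were all measured, with sums of 8141 to 8420 in wild-type and 7880 to 8228 in Mbd2-/- libraries, 1 called higher and 2 lower. The part of tissue composition in the differences of the small nucleolar and Cajal body RNAs was not tested.

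Calls and directions were also computed with a trend on transcript length removed. Of the 40 tested rows shorter than 200 bases, 28 were small nucleolar or Cajal body RNAs. When a smooth trend of the log2 values on transcript length was removed from each library, the median log2 fold change of the 33 with a length went from above 0 to -0.18, with 7 above and 26 below 0. Then 1 was called higher, Snora23 (0.60, adjusted p = 0.00726, limma), and 2 lower, Snord91a (-0.85, adjusted p = 0.0284) and Snora43 (-1.12, adjusted p = 0.000940). In the same fit 1081 of all 13243 rows were called higher and 917 lower, so calls in both directions were common. Snora81 and Snora64, no longer called, had log2 fold changes of 1.39 and 0.82. With the trend fitted on the other rows only, which was added after the data had been seen, the median was -0.22, again with 7 above and 26 below 0. Snora23 was again called higher (0.57, adjusted p = 0.0210, limma), and Snora30 (-0.77, adjusted p = 0.0491), Snord91a and Snora43 were called lower. This fit called 1080 of all 13243 rows higher and 921 lower. Few other rows are this short, so the trend at these lengths rests mostly on longer transcripts. The direction of the median and 4 of the 5 calls thus depended on whether such a trend was removed.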

How the data were processed

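Hippocampal RNA of 4 wild-type and 4 Mbd2-/- libraries was analysed, grouped by the genotype in the sample labels, with the pools of 2 mice as replicates. Before deposit, the authors discarded duplicate reads, ran STAR against mm9 and tested genotype with DESeq2, per the methods and the processing notes of the submitters. The tool that counted reads, its use of strand and its treatment of reads with several positions are not given in the sources used here. The signal that was deposited is the normalized count, the number of reads over the size factor of that library. Columns with the authors' own comparison (mean, fold change, its error, statistic and p-values) were deposited in the same table and were not used. Each value above 0 was a whole multiple of the smallest value of its library (100% within 0.01 of a read), so reads were recovered. They came to 8087750 to 23790825 per library, and intervals on them cover counting error only.

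Log2(normalized count + 1) was compared with limma 3.58.1 in R 4.3.3 (mean-variance trend, robust, two-sided) over the 14504 rows with a mean of at least 10, with Benjamini-Hochberg adjustment and a threshold of 0.05. Fold changes are on that scale, which understates the change of low rows. Ratios were tested by exact permutation in scipy 1.17.1. P-values set the difference between genotypes against the spread between pools of 2 mice. The test was also run with DESeq2 1.42.0, with edgeR 4.0.16 (quasi-likelihood) and with limma-voom on recovered reads, and in limma with TMM scaling, other filters and pseudocounts, no robust moderation, a replicate block, removal of a loess trend on length (span 0.5, 13243 rows, or the other rows only) and each library left out. The test was checked on simulated counts. Hosts and sequences were read from GENCODE vM1 and its mm9 genome, and identities come from global alignments with Biopython 1.88.

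The RNAs, gene lists and rules were chosen with earlier results of these data known. Named with values are the called RNAs, the 10 with the highest mean and the 10 with the largest absolute change, the 5 most variable in each genotype, every tested Scarna, the RNAs of the Prader-Willi region and the hosts of those RNAs. Snora7a, Snora15, Snora17, Snora21, Snora28, Snora30, Snora31, Snora41, Snora61, Snora65, Snora69, Snord15a, Snord67, Snord91a and Snord104 were named after their values had been seen. Blood markers were represented by 1 row, Alas2, with a log2 fold change of -0.23 and a summed count of 432 to 469 in wild-type and 351 to 409 in Mbd2-/- libraries.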

Additional observations from a re-analysis of the deposited data

Results flagged for a closer look

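Within the 4 libraries of a genotype, a single value stood far from the other 3 for 3 of the 70 groups examined (35 RNAs in 2 genotypes), by Dixon's test at its 95% level. Chance flags about 1 in 20 groups. Snora15 was at 76.8 normalized counts in Mbd2-/- replicate 2, where the other 3 lay between 62.2 and 62.6. Snora52, from the ribosomal protein gene Rplp2, was at 76.7 in wild-type replicate 2, where the others lay between 13.5 and 23.7. Scarna9 was at 5.27 in wild-type replicate 2, where the others lay between 13.7 and 14.99. Wild-type replicate 2 held 2 of the 3 values, one high and one low, and it was the highest wild-type library for 24 of the 35 tested RNAs.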

How the results depend on the processing

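The 5 RNAs called higher numbered between 4 and 7 under the other tools, TMM scaling, filters, pseudocounts, moderation and the replicate block, and the 0 called lower stayed 0 except for 1 (Snora43) with edgeR's quasi-likelihood test and 1 with a pseudocount of 5. Over all rows these settings called 1591 to 1809 higher and 1312 to 1457 lower. With the length trend removed 1 was called higher and 2 lower, and with that trend fitted on the other rows only, added after the data had been seen, 1 higher and 3 lower. Over all 13243 rows these 2 fits called 1081 and 1080 higher and 917 and 921 lower. With single libraries left out, 3 to 7 were called higher and 0 to 1 lower. Over all 14504 rows those fits called 1170 to 2596 higher and 868 to 2559 lower. Same-numbered libraries correlated at -0.10, -0.06, 0.07 and 0.04 in their deviations, so the numbers did not pair them. With the replicate block 4 were called higher, Snora81 being lost (adjusted p = 0.0981, limma), and 0 lower. Without a filter on low values Snora81 was lost as well (adjusted p = 0.0533, limma) and Snora41, Snord67 and Snora69 were added. No robust moderation added Snord22. The mean shares of reads and the ratios to hosts kept their direction and their side of the threshold.

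The log2 fold change changed sign with the length trend removed, whether fitted on all rows (first value) or on the other rows only (second value), in Scarna6 (-0.065 and -0.089), Scarna13 (-0.11 and -0.13), Snora28 (-0.16 and -0.21), Scarna10 (-0.13 and -0.15), Snord15a (-0.045 and -0.087), Snora3 (-0.12 and -0.16), Snora17 (-0.19 and -0.23), Snora5c (-0.032 and -0.077), Snord15b (-0.080 and -0.12), Scarna2 (-0.30 and -0.31), Snora70 (-0.052 and -0.097), Snord17 (-0.31 and -0.34), Snora16a (-0.18 and -0.22), Snord64 (-0.61 and -0.68), Snora68 (-0.49 and -0.53) and Snora21 (-0.47 and -0.51). It also did so for Snora68 with limma-voom (-0.085) and for Snora21 with DESeq2 (-0.038), edgeR (-0.14) and limma-voom (-0.068), and the cause was not tested. Relative to the median of the other tested RNAs, added after the data had been seen, Scarna6 was at -0.017 and Scarna13 at -0.068.

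With single libraries left out, the sign changed for Scarna2 (-0.035 to 0.25), Snord64 (-0.10 to 0.18), Snora68 (-0.36 to 0.45), Snora21 (-0.25 to 0.46), Snora74a (-0.24 to 0.11), Snora61 (-0.43 to 0.13), Snora30 (-0.44 to 0.042), Snora31 (-0.36 to 0.29) and Snord104 (-0.25 to 0.067), none of them called. Rows of few reads, such as Snord8 with 1 to 22 reads, limit what 4 libraries a genotype can show, and 63 of the 98 RNAs were too low to test.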
